A study of Mus musculus with 95 samples.

Results

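The forkhead transcription factor genes are described here in mouse E14 embryonic stem cells and in 6 derived lines that lack PCGF proteins. The genes were chosen by name alone, as every symbol of the deposited count table that begins with Fox, a letter from a to s and a digit. This gave 46 of 23377 genes, of which 44 are named as forkhead protein genes (Foxl1 among them is annotated as a pseudogene in GENCODE M1) and the other two, Foxd2os and Foxl2os, are long non-coding RNAs transcribed away from Foxd2 and Foxl2.

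The study compared embryonic stem cells that lack different PCGF subunits of Polycomb repressive complex 1, by RNA sequencing and by chromatin immunoprecipitation with sequencing (ChIP-seq). RNA was measured in 14 libraries, 2 for each of 7 genotypes: wild-type, Pcgf1-/-, Pcgf2/4-/-, Pcgf3/5-/-, Pcgf6-/-, Pcgf1/2/4-/- and Pcgf3/5/6-/-. All lines derive from E14 and share the same culture on gelatin, in serum with LIF, a GSK3β inhibitor and a MEK1/2 inhibitor. Knockouts were made by Cas9 and guide RNAs, isolated as clones and screened by PCR, Western blot and Sanger sequencing. A knockout clone was edited again to remove further genes. No label says that the libraries of a genotype came from separate clones, so p-values measure only the spread between these libraries, which may be technical. Peaks were called in 1 ChIP-seq sample for each antibody and line, except for Ring1b and H2AK119Ub1 in Pcgf1/2/4-/-, with 2 samples each. The lists used here also cover Ezh1/2-/- cells, Ring1a/b-/- cells and the Ring1a-/-_Ring1bfl line they are made from, in which Ring1b is floxed and Cre is inducible. Pcgf6 lists further cover cells with a control hairpin (shCtr) and cells labelled shMGA, shMGAdHLH, shE2F6 and shE2F6-MGAdHLH. The sample labels alone do not say what dHLH stands for, so those cells are not read as plain knockdowns of MGA.

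Forkhead proteins bind DNA through a winged-helix domain, and most members act in one embryonic tissue, where they help to set cell identity. RING1B is a ubiquitin ligase of Polycomb repressive complex 1 that modifies histone H2A (the mark H2AK119Ub1), and SUZ12 is a subunit of Polycomb repressive complex 2, which methylates histone H3 (H3K27me3). Each PCGF protein defines a form of complex 1: PCGF2 and PCGF4 (BMI1) form the canonical one, whose CBX subunits bind H3K27me3, PCGF1 works with KDM2B and BCOR, and PCGF6 with MGA, MAX, E2F6 and L3MBTL2. In embryonic stem cells, Polycomb complexes are known to cover CpG-rich starts of silent developmental regulators, a class to which many forkhead genes belong.

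Starts are shown here for members that span the range of the family: the member with the highest wild-type Ring1b peak (Foxb2), the one with the highest wild-type Pcgf6 peak (Foxo3), the most expressed member per exon length without a Ring1b peak (Foxh1), and the pair with the largest fitted change in RNA (Foxa1 and Foxd2os). Each sequence runs from 250 bases before to 30 bases from the most upstream annotated start, 5′ to 3′ on the gene's strand, read from mouse build NCBIM37 with GENCODE M1 starts. Capitals mark CG dinucleotides.
Foxb2 (chr19:16948101-16948380, minus strand): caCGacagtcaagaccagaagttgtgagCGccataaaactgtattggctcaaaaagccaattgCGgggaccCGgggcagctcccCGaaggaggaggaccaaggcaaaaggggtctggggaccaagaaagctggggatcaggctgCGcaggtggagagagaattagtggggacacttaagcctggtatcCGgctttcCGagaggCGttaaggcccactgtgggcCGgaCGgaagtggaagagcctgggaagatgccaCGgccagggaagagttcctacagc
Foxo3 (chr10:41996532-41996811, minus strand): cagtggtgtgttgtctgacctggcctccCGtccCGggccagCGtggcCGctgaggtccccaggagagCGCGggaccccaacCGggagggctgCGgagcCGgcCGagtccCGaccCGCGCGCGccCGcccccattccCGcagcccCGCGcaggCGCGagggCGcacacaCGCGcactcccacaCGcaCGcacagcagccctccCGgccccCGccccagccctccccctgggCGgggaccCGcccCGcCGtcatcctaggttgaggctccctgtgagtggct
Foxh1 (chr15:76500349-76500628, minus strand): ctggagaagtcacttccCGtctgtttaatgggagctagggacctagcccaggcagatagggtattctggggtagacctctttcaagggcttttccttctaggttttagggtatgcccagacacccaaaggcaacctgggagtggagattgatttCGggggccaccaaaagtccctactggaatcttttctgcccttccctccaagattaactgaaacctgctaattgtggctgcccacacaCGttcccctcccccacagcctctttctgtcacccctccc
Foxa1 (chr12:58647079-58647358, minus strand): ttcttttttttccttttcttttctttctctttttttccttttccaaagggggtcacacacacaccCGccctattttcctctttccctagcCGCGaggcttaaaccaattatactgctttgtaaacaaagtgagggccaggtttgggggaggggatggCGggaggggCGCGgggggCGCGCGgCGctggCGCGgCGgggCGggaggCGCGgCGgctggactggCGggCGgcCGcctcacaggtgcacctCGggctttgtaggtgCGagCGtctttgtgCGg
Foxd2os (chr4:114581612-114581891, plus strand): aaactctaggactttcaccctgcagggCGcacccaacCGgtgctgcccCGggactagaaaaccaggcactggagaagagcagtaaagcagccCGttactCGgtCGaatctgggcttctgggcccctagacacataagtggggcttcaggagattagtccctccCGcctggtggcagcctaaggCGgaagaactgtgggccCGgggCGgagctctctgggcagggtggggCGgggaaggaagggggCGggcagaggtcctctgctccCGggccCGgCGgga
The Foxo3 window holds 32 CG dinucleotides, the Foxa1 window 24, the Foxd2os window 15, the Foxb2 window 12 and the Foxh1 window 3. Over 280-base windows at all 21996 annotated genes of the count table the median was 11. It was 18 over the 46 forkhead genes, 22 over the 31 with a wild-type Ring1b peak and 9 over the 15 without one. Foxh1, the most CG-poor of the sequences shown, was picked for its expression. Windows of other members with high wild-type RNA held 4 (Foxk2), 6 (Foxn3), 14 (Foxo4), 15 (Foxr1), 30 (Foxn2) and 45 (Foxm1). A link between CG content and expression was not tested.

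Motifs were searched by their exact letters on both strands in the same windows, as a description of the letters alone. The E-box CACGTG, which contains a CG, was found in 4 forkhead windows (8.7%) and in 7.58% of all windows. The T-box motif AGGTGTGA was found in 1 forkhead window (2.17%) and 1.06% of all, the E2F motif TTCCCGCC in 1 (2.17%) and 2.75%, and the forkhead motif GTAAACA in 1 (2.17%) and 3.03%. The forkhead match lies in the Foxa1 window above.

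Sequence at Pcgf6 summits is shown for the 3 forkhead genes with the highest wild-type Pcgf6 peaks, because PCGF6 works with the DNA-binding proteins MGA, MAX and E2F6. The sequences are centred on the deposited summit, on the plus strand of NCBIM37, and capitals mark an E-box, T-box, E2F or forkhead motif. The Foxp2 stretch is shorter because it overlaps an untranslated exon.
Foxo3 (chr10:41997874-41998074, peak fold 11.4): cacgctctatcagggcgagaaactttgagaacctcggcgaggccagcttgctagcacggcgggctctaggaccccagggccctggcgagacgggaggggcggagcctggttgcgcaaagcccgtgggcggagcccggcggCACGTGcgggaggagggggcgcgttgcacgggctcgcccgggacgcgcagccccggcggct
Foxp2 (chr6:14851600-14851624, peak fold 10.4): acTTCCCGCCgcagcttcctcgggt
Foxn2 (chr17:88839533-88839733, peak fold 8.22): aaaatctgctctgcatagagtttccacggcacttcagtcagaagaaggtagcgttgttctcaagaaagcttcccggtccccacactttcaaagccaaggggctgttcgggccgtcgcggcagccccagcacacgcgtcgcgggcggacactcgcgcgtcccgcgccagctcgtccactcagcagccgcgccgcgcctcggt
Within 301 bases, the Foxo3 summit had 2 E-boxes and 1 forkhead motif, the nearest 43 bases from the summit. The Foxp2 stretch holds an E2F motif, 6 bases from the summit, and no motif was found within 301 bases of the Foxn2, Foxd1, Foxd4 and Foxq1 summits. Over 301 bases at all 1868 wild-type Pcgf6 summits, 25.9% held the E-box, 2.57% the T-box motif, 5.67% the E2F motif and 2.78% the forkhead motif.

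Library totals ran from 2147968 to 7848161 counts. The 2 wild-type libraries differed by less than the sampling noise (0.958 for chi-square divided by its degrees of freedom over the tested genes, p = 0.99988), while the other genotypes had 1.18 to 19.5. Levels are printed for both wild-type libraries, but the pair is counted as 1 sample, so no spread is given for wild-type. A knockout library that lies beyond both wild-type libraries thus lies beyond 1 sample. The fits hold the wild-type libraries as 2 replicates, and the counts of changed genes are also given with these libraries summed to 1. Levels are given as CPM, counts scaled to a common library size. Of the targeted genes, Pcgf1 was at 66.0 and 61.0 CPM in wild-type and at 4.80 and 3.20 CPM in Pcgf1-/-, and Pcgf6 had no count in Pcgf6-/-. Pcgf6 RNA was at 42.0 and 37.2 CPM in Pcgf3/5/6-/- against 36.2 and 34.3 CPM in wild-type, and Pcgf2 RNA at 41.0 and 54.8 CPM in Pcgf2/4-/- against 42.9 and 48.9 CPM. In Pcgf1/2/4-/- Pcgf2 RNA was at 57.1 and 56.8 CPM. Pcgf5 was at 16.4 and 13.5 CPM in Pcgf3/5/6-/- and 5.48 and 4.60 CPM in Pcgf3/5-/-, against 13.0 and 10.8 CPM in wild-type. In Pcgf3/5-/- Pcgf3 was at 11.4 and 12.8 CPM against 16.4 and 15.5 CPM, and in Pcgf2/4-/- Bmi1 (Pcgf4) was at 12.1 and 14.04 CPM against 16.1 and 14.2 CPM. Counts over a whole gene do not test a small edit. All 12 pluripotency markers had counts in every library (2043 to 4088 CPM summed). Germ cell markers summed to 259 to 394 CPM in wild-type, Pcgf1-/-, Pcgf2/4-/-, Pcgf3/5-/- and Pcgf1/2/4-/-, to 1438 and 1574 CPM in Pcgf6-/- and to 1078 and 1098 CPM in Pcgf3/5/6-/-. Trophectoderm markers summed to 1655 and 1681 CPM in Pcgf3/5/6-/- against 272 and 286 CPM in wild-type, with 9 of 10 tested genes raised. They summed to 544 and 553 CPM in Pcgf6-/- (7 raised) and to 462 and 512 CPM in Pcgf1/2/4-/- (6 raised). Primitive endoderm markers summed to 188 to 235 CPM in Pcgf6-/- and Pcgf3/5/6-/- with none at 0, against 82.2 and 90.4 CPM in wild-type with 4 of 10 at 0. Neuroectoderm markers summed to 140 and 138 CPM in Pcgf3/5/6-/- against 60.6 and 62.4 CPM in wild-type, with all 5 tested genes raised. Fibroblast markers summed to 42.2 and 39.0 CPM in Pcgf6-/- and 43.6 CPM in both Pcgf3/5/6-/- libraries against 19.7 and 15.2 CPM, with 4 of 5 tested genes raised in each line. Among all genes tested, 27.8% were raised in Pcgf6-/-, 28% in Pcgf3/5/6-/- and 14.4% in Pcgf1/2/4-/-. Markers of definitive endoderm and mesendoderm summed to 57.7 and 52.7 CPM in wild-type and to 20.5 to 40.3 CPM in the other libraries. In bulk samples, more RNA per cell and more cells of a type cannot be told apart, and the part of these markers in the forkhead results was not tested.

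Few forkhead genes were strongly expressed in wild-type cells. Per kilobase of exon, Foxh1, the DNA-binding partner of SMAD2 in Nodal signalling, was highest at 77.0 CPM per kb. Next came Foxn2 at 22.3, Foxr1 at 14.1, Foxn3 at 9.0, the mitotic regulator Foxm1 at 8.61, Foxo4 at 8.06 and Foxk2 at 6.55 CPM per kb. With wild-type counted as 1 sample, neighbours in this order have no spread to be held against.

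The other end of the family was silent. Of the 46 genes, 25 did not pass the filter on low counts, and the highest group mean among them was 1.81 CPM. No count fell in wild-type libraries for 17 of them, and Foxb2 and Foxc1 had none in any library. The untested genes were Foxa2, Foxb1, Foxb2, Foxc1, Foxc2, Foxd1, Foxd2, Foxd4, Foxe1, Foxe3, Foxf1, Foxf2, Foxi1, Foxi2, Foxi3, Foxl1, Foxl2, Foxl2os, Foxn1, Foxo6, Foxp2, Foxp3, Foxq1, Foxr2 and Foxs1. They include regulators of gut and lung mesenchyme (Foxf1, Foxf2, Foxl1), thymus (Foxn1), regulatory T cells (Foxp3), ovary (Foxl2), lens (Foxe3) and thyroid (Foxe1). Foxq1 had no count in wild-type, 18 and 9 counts in Pcgf6-/- and 4 and 5 in Pcgf3/5/6-/-, which is at least 8.52-fold and at least 6.95-fold higher than a floor of 3 counts over the wild-type group. Foxi2 had no count in wild-type, 8 and 6 in Pcgf6-/- and 4 and 2 in the smaller libraries of Pcgf3/5/6-/-. Its highest group mean was 0.969 CPM, in Pcgf3/5/6-/-. Foxa2 had 10 counts over the Pcgf6-/- libraries, 2 in Pcgf1/2/4-/-, 1 in Pcgf3/5/6-/- and none elsewhere. Foxr2 had 8 and 6 counts in wild-type and none in Pcgf6-/-, but 10 over the smaller libraries of Pcgf3/5/6-/-, where its group mean was highest at 1.62 CPM. Foxd1 had 13 counts in Pcgf3/5-/-, 10 in Pcgf2/4-/-, 4 in wild-type and none in Pcgf6-/- or Pcgf1/2/4-/-. These genes did not pass the filter on low counts and were not tested here.

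Each knockout was compared with wild-type by edgeR's quasi-likelihood test over 15464 genes with Benjamini-Hochberg adjustment, at a threshold of 0.05. A gene is called raised or lowered below only where it passed. All 6 comparisons share the wild-type libraries. Some of the 21 tested forkhead genes, such as Foxa1, Foxn4 and Foxj1, passed the filter through the lines in which they are high, so counts over the tested genes describe those genes and not the family.

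Pcgf6-/- raised 10 and lowered 7 of the 21 tested forkhead genes, against 27.8% raised and 18.6% lowered among all genes tested. Pcgf3/5/6-/- raised 10 and lowered 3, against 28% and 25.3%. The other lines changed fewer. Pcgf1-/- raised 4 and lowered 3 (13.9% and 18.4% of all genes), Pcgf2/4-/- raised 1 and lowered 3 (8.1% and 13.5%), Pcgf3/5-/- raised 2 and lowered 2 (11.1% and 10.4%), and Pcgf1/2/4-/- raised 3 and lowered 4 (14.4% and 22.6%). The median log2 fold change of the 21 genes was 0.65 in Pcgf3/5/6-/- and 0.30 in Pcgf6-/-, against 0.05 and 0.03 over all genes. In Pcgf1/2/4-/- the median of all genes was -0.11, and 38.9% of all calls were raised, a share that was 50.9% with DESeq2, so small changes there are read relative to that shift. With the wild-type libraries summed to 1, the numbers of changed forkhead genes were 6 in Pcgf1-/-, 3 in Pcgf2/4-/-, 4 in Pcgf3/5-/-, 14 in Pcgf6-/-, 4 in Pcgf1/2/4-/- and 13 in Pcgf3/5/6-/-. Leaving out 1 library moved a count by over 1.5 times in Pcgf6-/- (11 without its replicate 2), Pcgf2/4-/- (2 without wild-type replicate 2) and Pcgf1/2/4-/- (4 without its replicate 2).

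**Figure D1:**
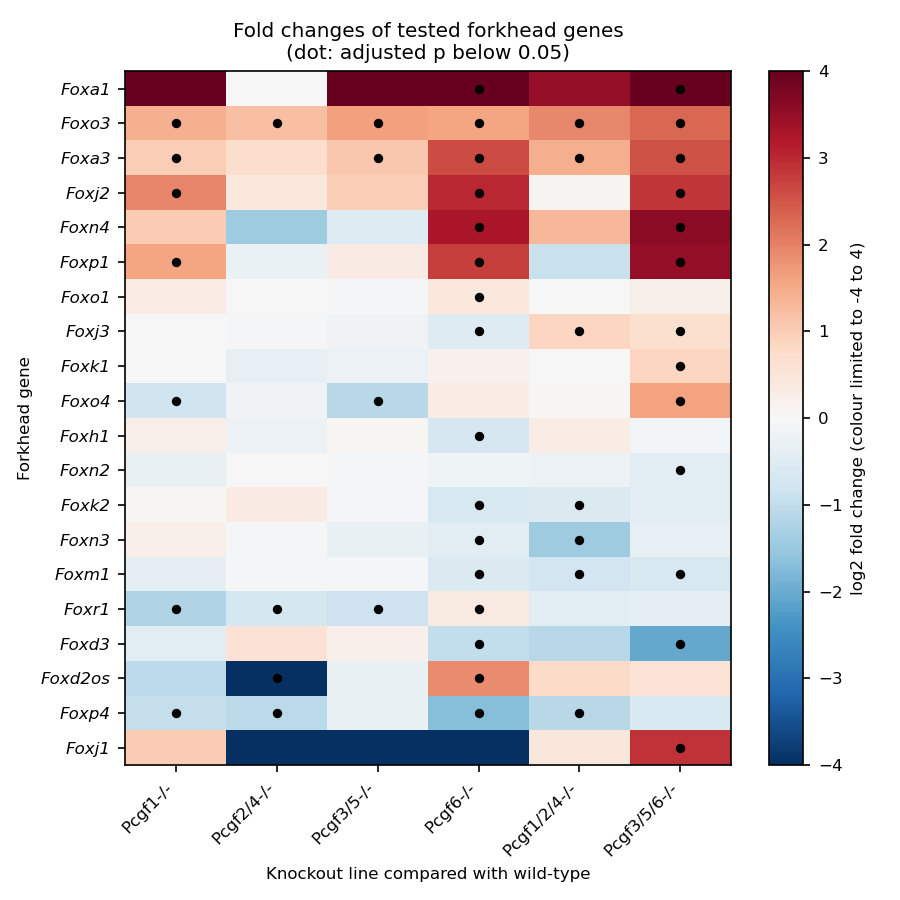
Log2 fold changes of tested forkhead genes (rows) in each knockout line against wild-type (columns), with red for higher and blue for lower in the knockout, the colour limited to -4 to 4, and a dot where the adjusted p was below 0.05. Foxo3 has a dot in all 6 columns, and the blue cells of Foxj1 without a dot stand for lines with no count against 5 wild-type counts.

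Among the FOXA genes, which encode pioneer factors of endoderm and liver, Foxa3 was at 2.99 and 2.11 CPM in wild-type. It was at 17.3 and 14.1 CPM in Pcgf6-/-, 14.2 and 15.9 CPM in Pcgf3/5/6-/- and 6.93 and 7.22 CPM in Pcgf1/2/4-/-. In Pcgf1-/- it was at 5.35 and 4.57 CPM, in Pcgf3/5-/- at 6.01 and 4.60 CPM and in Pcgf2/4-/- at 3.77 and 4.34 CPM. Every knockout library was above both wild-type libraries. The log2 fold change was 2.62 ± 0.24 (SE, adjusted p = 9.08e-07) in Pcgf6-/-, 2.55 ± 0.27 (3.36e-06) in Pcgf3/5/6-/-, 1.47 ± 0.35 (0.00555) in Pcgf1/2/4-/-, 1.07 ± 0.29 (0.0166) in Pcgf3/5-/- and 0.98 ± 0.29 (0.0184) in Pcgf1-/-, and Foxa3 was not called in Pcgf2/4-/-. The Pcgf1-/- and Pcgf3/5-/- calls were lost without wild-type replicate 2 or without replicate 1 of the knockout (highest adjusted p 0.164 and 0.175), and the Pcgf1/2/4-/- call without its replicate 2 (0.0516).

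Foxa1 had no count in either wild-type or either Pcgf2/4-/- library and 13 counts in each Pcgf6-/- library. This is at least 8.40-fold higher than the floor of 3 counts over the wild-type group (adjusted p = 0.00103). It had 5 and 2 counts in both Pcgf1-/- and Pcgf3/5-/-, 1 and 0 in Pcgf1/2/4-/-, and 5 and 0 in Pcgf3/5/6-/-. The call in Pcgf3/5/6-/- (adjusted p = 0.0219) rests on 1 library, and without replicate 1 of that line no count was left and the adjusted p was 1. Both Pcgf6-/- libraries thus stood clear of wild-type, and the other lines overlapped it or rested on a few counts.

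Of 9 tested genes of a list of FOXA and endoderm partners, 4 were raised and 2 lowered in Pcgf6-/- (27.8% and 18.6% of all genes). In Pcgf3/5/6-/- 5 were raised and 2 lowered (28% and 25.3%). Pcgf1/2/4-/- had 2 raised and 2 lowered (14.4% and 22.6%) and Pcgf2/4-/- 3 raised (8.1%). Pcgf1-/- had 1 raised and 2 lowered (13.9% and 18.4%), and Pcgf3/5-/- 1 raised (11.1%). Hnf4a, a nuclear receptor of visceral endoderm and liver, had a mean of 19.5 CPM in wild-type, 3.26 CPM in Pcgf3/5/6-/- and 0 in Pcgf6-/-, and it was lowered in both.

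The FOXO proteins are kept out of the nucleus by insulin and AKT signalling and activate growth arrest and stress genes when that signal falls. Foxo3 was at 4.99 and 3.37 CPM in wild-type and was the only forkhead gene raised in all 6 lines. It was at 12.8 and 8.68 CPM in Pcgf1-/-, 6.70 and 11 in Pcgf2/4-/-, 14.6 and 11.1 in Pcgf3/5-/-, 13.7 and 11 in Pcgf6-/-, 12.8 and 18.5 in Pcgf1/2/4-/- and 19.9 and 21.6 CPM in Pcgf3/5/6-/-. All 12 knockout libraries lay above both wild-type libraries. The log2 fold changes ran from 1.2 ± 0.32 (SE, adjusted p = 0.0163) in Pcgf2/4-/- to 2.31 ± 0.31 (adjusted p = 2.40e-05) in Pcgf3/5/6-/-. The Pcgf2/4-/- call was lost without wild-type replicate 2, without Pcgf2/4-/- replicate 2 and in a fit of those 2 groups alone (highest adjusted p 0.313), and the Pcgf1-/- call without its replicate 1 (0.0772).

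Foxo4 did not follow Foxo3. It was at 29.2 and 27 CPM in wild-type, 85.5 and 87.5 CPM in Pcgf3/5/6-/- and 36.4 and 32.8 CPM in Pcgf6-/-. In Pcgf3/5-/- it was at 13.5 and 12.5 CPM, in Pcgf1-/- at 16.4 and 16.2 CPM, in Pcgf2/4-/- at 16.3 and 30.4 CPM and in Pcgf1/2/4-/- at 26.1 and 31.1 CPM. Pcgf3/5/6-/- stood above every other library, and Pcgf1-/- and Pcgf3/5-/- below wild-type. The log2 fold change was 1.62 ± 0.18 (adjusted p = 4.23e-06) in Pcgf3/5/6-/-, -1.11 ± 0.20 (0.00142) in Pcgf3/5-/- and -0.78 ± 0.19 (0.00672) in Pcgf1-/-, the last of which was lost when any of 3 libraries was left out (wild-type replicate 1 or either Pcgf1-/- library, highest adjusted p 0.0606). Foxo1 ranged from 11.3 to 17.9 CPM over all libraries. It was called raised in Pcgf6-/- by 0.43 ± 0.17 (adjusted p = 0.0452), and the call was kept in only 3 of 12 alternative analyses.

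Of 24 tested genes of insulin and AKT signalling and known FOXO targets, 7 were raised and 4 lowered in Pcgf1-/- (13.9% and 18.4% of all genes). The counts were 5 and 2 in Pcgf2/4-/- (8.1% and 13.5%), 3 and 1 in Pcgf3/5-/- (11.1% and 10.4%) and 7 and 5 in Pcgf6-/- (27.8% and 18.6%). They were 3 and 8 in Pcgf1/2/4-/- (14.4% and 22.6%) and 8 and 4 in Pcgf3/5/6-/- (28% and 25.3%). Txnip, a thioredoxin inhibitor and FOXO target, had a mean of 76.1 CPM in wild-type and was raised in 5 lines, to 322 CPM in Pcgf1-/-. Cdkn1b, the cell cycle inhibitor p27, had a mean of 23.0 CPM in wild-type. It was raised to 45.5 CPM in Pcgf1-/-, 38.8 CPM in Pcgf2/4-/- and 34.2 CPM in Pcgf3/5-/- and lowered to 11.8 CPM in Pcgf6-/- and 6.38 CPM in Pcgf3/5/6-/-. Members of the list thus changed in both directions.

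Foxp1, a repressor best known in lymphocytes and heart, had the smallest adjusted p of the family against wild-type. It was at 2.99 and 2.53 CPM in wild-type, 18.5 and 19.0 CPM in Pcgf6-/-, 30.9 and 33.1 CPM in Pcgf3/5/6-/- and 8.19 and 8.45 CPM in Pcgf1-/-. In Pcgf2/4-/- it was at 0.837 and 2.81 CPM, in Pcgf3/5-/- at 3.07 and 4.02 CPM and in Pcgf1/2/4-/- at 2.13 and 0.902 CPM. The first 3 of these lines lay clear of wild-type, and no change was called in the last 3. The log2 fold change was 3.52 ± 0.26 (adjusted p = 1.17e-07) in Pcgf3/5/6-/-, 2.75 ± 0.26 (9.50e-07) in Pcgf6-/- and 1.58 ± 0.29 (0.000918) in Pcgf1-/-. Part of Foxp1 overlaps Eif4e3 on the same strand, so the split of reads between the pair is uncertain.

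Its relative Foxp4 was lowered in 4 lines. Foxp4 was at 13.5 and 17.1 CPM in wild-type, 4.73 and 4.59 CPM in Pcgf6-/-, 9.06 and 5.94 CPM in Pcgf1-/-, 4.60 and 8.43 CPM in Pcgf2/4-/- and 4.80 and 9.02 CPM in Pcgf1/2/4-/-. In Pcgf3/5-/- (15.8 and 8.43 CPM) and Pcgf3/5/6-/- (8.52 and 11.8 CPM) no change was called. The change in Pcgf6-/- was -1.71 ± 0.33 on the log2 scale (adjusted p = 0.000652). The calls in Pcgf1-/-, Pcgf2/4-/- and Pcgf1/2/4-/- (adjusted p 0.0286, 0.0332 and 0.0460) were lost with the wild-type libraries summed and without either wild-type library (highest adjusted p 0.196, 0.187 and 0.312). They were also lost without Pcgf1-/- replicate 2, without Pcgf2/4-/- replicate 1 and without either Pcgf1/2/4-/- library.

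Foxj2, a broadly expressed activator, followed the pattern of Foxp1. It was at 2.71 and 2.25 CPM in wild-type, 22.4 and 17.9 CPM in Pcgf6-/-, 15.5 and 20.6 CPM in Pcgf3/5/6-/- and 9.83 and 9.59 CPM in Pcgf1-/-. It was at 1.67 and 3.96 CPM in Pcgf2/4-/-, 5.48 and 4.21 CPM in Pcgf3/5-/- and 1.07 and 4.06 CPM in Pcgf1/2/4-/-, with no call. The log2 fold changes were 3.02 ± 0.30 (adjusted p = 2.00e-06), 2.85 ± 0.34 (8.63e-06) and 1.96 ± 0.33 (0.000551) in these 3 lines, in the order given first. Foxj1, the master regulator of motile cilia, had 2 and 3 counts in wild-type, 6 and 11 in Pcgf3/5/6-/- (adjusted p = 0.00336, and 0.451 at most over the alternatives, with the call lost without Pcgf3/5/6-/- replicate 2) and none in Pcgf2/4-/-, Pcgf3/5-/- or Pcgf6-/-. Foxj3 moved in opposite directions: from 28.1 and 28.4 CPM in wild-type it was at 22.1 and 17.0 CPM in Pcgf6-/- (adjusted p = 0.0119), 48.5 and 54.1 CPM in Pcgf1/2/4-/- (0.00107) and 44.5 and 43.9 CPM in Pcgf3/5/6-/- (0.00283). In Pcgf1-/- (29.0 and 26.0 CPM), Pcgf2/4-/- (23.4 and 29.0) and Pcgf3/5-/- (27.6 and 23.2) Foxj3 was not called. Its Pcgf6-/- call was lost without either wild-type library or Pcgf6-/- replicate 2 (highest adjusted p 0.151).

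Foxn4, a regulator of retinal and spinal progenitors, was at 0.428 and 0.703 CPM in wild-type, 6.22 and 4.90 CPM in Pcgf6-/- and 9.47 and 4.39 CPM in Pcgf3/5/6-/-. It was at 1.75 and 0 CPM in Pcgf1-/-, 0 and 0.255 in Pcgf2/4-/-, 0.401 and 0.383 in Pcgf3/5-/- and 0.533 and 2.26 CPM in Pcgf1/2/4-/-. Both libraries of Pcgf6-/- and of Pcgf3/5/6-/- thus lay above all others. The log2 fold changes were 3.26 ± 0.62 (adjusted p = 0.000564) and 3.58 ± 0.68 (0.000504). Foxd2os had 11 counts in each wild-type library, 54 and 31 in Pcgf6-/-, none in Pcgf2/4-/- and 2 to 9 in each library of the other lines. This is a log2 change of 1.88 ± 0.31 (adjusted p = 0.000220) in Pcgf6-/- and a level at least 5.31-fold lower in Pcgf2/4-/- (adjusted p = 0.00211). Library totals differ, so raw counts do not rank the other lines. The authors' log2 fold changes of Foxd2os, with no call, were 0.87 in Pcgf1/2/4-/-, 0.63 in Pcgf3/5/6-/-, -0.29 in Pcgf3/5-/- and -1.04 in Pcgf1-/-. Its neighbour Foxd2, whose start lies 359 bases away, had no count in either wild-type or Pcgf2/4-/- library and 2 counts in Pcgf6-/-.

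**Figure D2:**
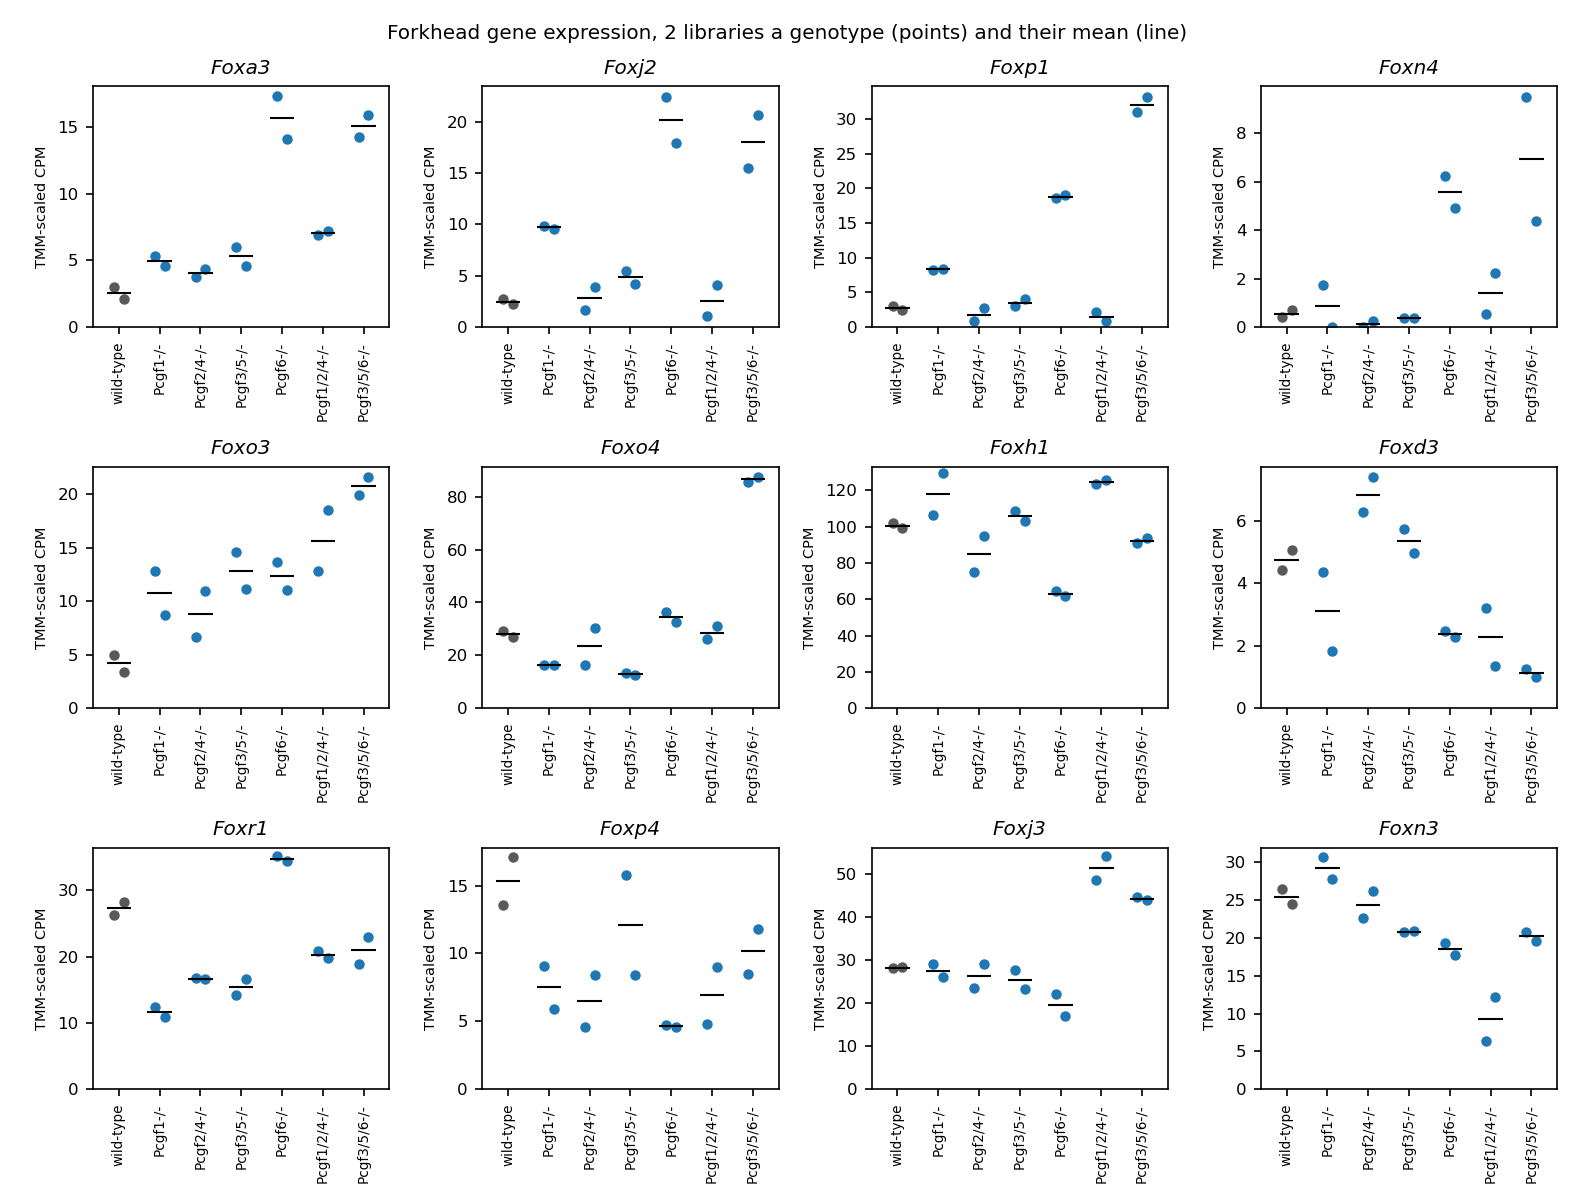
Expression of 12 forkhead genes in TMM-scaled CPM (vertical axis) in each genotype (horizontal axis), with a point for each library, grey for wild-type, and a line at the mean. Foxa3, Foxj2, Foxp1 and Foxn4 were highest in Pcgf6-/- and Pcgf3/5/6-/-, while all 12 knockout libraries of Foxo3 lay above wild-type.

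Foxh1, the most abundant forkhead RNA per kb, was lowered in Pcgf6-/-, at 64.4 and 61.7 CPM against 102 and 99.2 CPM in wild-type (log2 fold change -0.67 ± 0.12, adjusted p = 0.000439). It was at 107 and 129 CPM in Pcgf1-/-, 74.9 and 94.7 in Pcgf2/4-/-, 109 and 103 in Pcgf3/5-/-, 123.7 and 125.9 in Pcgf1/2/4-/- and 90.9 and 93.6 CPM in Pcgf3/5/6-/-, and no change was called there. The direct comparison of Pcgf3/5/6-/- with Pcgf6-/- gave a log2 difference of 0.55 ± 0.13 (adjusted p = 0.00330). In Pcgf6-/-, 7 of 15 tested genes of the Nodal pathway were lowered and 2 raised (18.6% and 27.8% of all genes). The lowered ones included Foxh1, the ligands Nodal and Gdf3, the receptor Acvr1b and the targets Lefty1 and Lefty2. In Pcgf3/5/6-/- 8 were raised and 2 lowered (28% and 25.3%) and in Pcgf1/2/4-/- 7 were raised and 1 lowered (14.4% and 22.6%). The feedback inhibitor Lefty2 was raised in both. Pcgf1-/- had 2 raised and 4 lowered (13.9% and 18.4%), Pcgf2/4-/- 1 and 2 (8.1% and 13.5%), and Pcgf3/5-/- 2 and 1 (11.1% and 10.4%). Lefty1 had a mean of 29.2 CPM in wild-type, 17.7 CPM in Pcgf6-/- and 154 CPM in Pcgf3/5/6-/-.

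Foxd3, known for its role in pluripotent cells and neural crest, was at 4.42 and 5.06 CPM in wild-type. It was at 1.26 and 1.01 CPM in Pcgf3/5/6-/-, a change of -2.03 ± 0.52 on the log2 scale (adjusted p = 0.00442), and at 2.49 and 2.30 CPM in Pcgf6-/- (-0.98 ± 0.34, adjusted p = 0.0308). The Pcgf6-/- call was lost when any one of the 4 libraries was left out (highest adjusted p 0.146). In Pcgf1-/- (4.37 and 1.83 CPM) and Pcgf1/2/4-/- (3.20 and 1.35 CPM) the libraries also lay below wild-type, with no call. Pcgf2/4-/- at 6.28 and 7.40 CPM and Pcgf3/5-/- at 5.74 and 4.98 CPM were not called.

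Foxm1, which drives mitotic genes, was at 47.9 and 46.8 CPM in wild-type, 36.1 and 27.7 CPM in Pcgf6-/-, 26.1 and 29.3 CPM in Pcgf1/2/4-/- and 34.1 and 26.7 CPM in Pcgf3/5/6-/-, and was called lowered in these 3 lines (adjusted p 0.0245, 0.0192 and 0.0202). It was at 42.7 and 29.9 CPM in Pcgf1-/-, 36 and 50.0 in Pcgf2/4-/- and 51.0 and 40.8 CPM in Pcgf3/5-/-. Each of the 3 calls was lost without wild-type replicate 1 and without wild-type replicate 2, and also without replicate 2 of its own line or, in Pcgf1/2/4-/-, without either of its replicates (highest adjusted p 0.209, 0.159 and 0.181). Of 15 mitotic genes known as FOXM1 targets, 6 were raised and 1 lowered in Pcgf1/2/4-/- (14.4% and 22.6% of all genes). In Pcgf3/5/6-/- 2 were raised and 2 lowered (28% and 25.3%), and in Pcgf6-/- 1 was lowered and none raised (18.6% and 27.8%). Among them, Plk1, a mitotic kinase, had a mean of 263 CPM in wild-type and 392 CPM in Pcgf1/2/4-/-. The other lines had 2 lowered (Pcgf1-/-, 18.4% of all genes), 1 raised and 1 lowered (Pcgf2/4-/-, 8.1% and 13.5%) and none changed (Pcgf3/5-/-, 11.1% raised and 10.4% lowered). Most of the list was thus not called where Foxm1 was lowered.

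Among the widely expressed members, Foxn3, a repressor of cell cycle genes, fell in Pcgf1/2/4-/- from 26.5 and 24.4 CPM to 6.40 and 12.2 CPM (log2 fold change -1.42 ± 0.23, adjusted p = 0.000370). It was at 30.7 and 27.9 CPM in Pcgf1-/-, 22.6 and 26.2 in Pcgf2/4-/-, 20.8 and 20.9 in Pcgf3/5-/- and 20.8 and 19.6 CPM in Pcgf3/5/6-/-, with no call. Its Pcgf6-/- call (19.3 and 17.8 CPM, adjusted p = 0.0326) was lost without any one of the 4 libraries (highest adjusted p 0.176). Foxk2, which represses autophagy genes together with Foxk1, was at 39.8 and 33.4 CPM in wild-type, 24.8 and 22.5 CPM in Pcgf6-/- (adjusted p = 0.00582) and 19.7 and 28.4 CPM in Pcgf1/2/4-/- (adjusted p = 0.0324). Foxk2 was at 22.3 to 48.4 CPM in the other lines. The second of these calls was lost in 6 of 12 alternatives, including summed wild-type libraries and omission of Pcgf1/2/4-/- replicate 1 (highest adjusted p 0.313), and the first without wild-type replicate 1 or Pcgf6-/- replicate 2 (0.0777). Foxk1 was at 18.4 and 12.2 CPM in wild-type and at 8.79 to 17.6 CPM in the lines without a call, and was raised in Pcgf3/5/6-/- to 32.2 and 23.3 CPM (0.86 ± 0.24, adjusted p = 0.00850), a call lost without wild-type replicate 2 or Pcgf3/5/6-/- replicate 1 (0.140). Foxn2 was at 162 and 167 CPM in wild-type, 133 and 136 in Pcgf1-/-, 151 and 173 in Pcgf2/4-/-, 151 and 166 in Pcgf3/5-/-, 143 and 148 in Pcgf6-/-, 135 and 143 in Pcgf1/2/4-/- and 134 and 111 CPM in Pcgf3/5/6-/-. Its single call was a change of -0.42 ± 0.13 in Pcgf3/5/6-/- (adjusted p = 0.0130), lost without wild-type replicate 2 or Pcgf3/5/6-/- replicate 2 (0.123).

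Foxr1 was lowered in 3 lines. It was at 26.4 and 28.2 CPM in wild-type, 12.4 and 11 CPM in Pcgf1-/-, 16.7 and 16.6 CPM in Pcgf2/4-/- and 14.2 and 16.7 CPM in Pcgf3/5-/-. The log2 fold changes were -1.20 ± 0.15 (adjusted p = 5.16e-05), -0.71 ± 0.15 (0.00464) and -0.83 ± 0.15 (0.00131). The Pcgf2/4-/- call was lost in a fit of those 2 groups alone (adjusted p = 0.0930) and kept in the other 11 alternatives (0.00458 to 0.0462). In Pcgf6-/- it was at 35.2 and 34.4 CPM, above wild-type, but this call (adjusted p = 0.0462) was kept in only 4 of 12 alternatives. Pcgf1/2/4-/- (20.8 and 19.8 CPM) and Pcgf3/5/6-/- (18.9 and 23.0 CPM) lay below wild-type with adjusted p of 0.0628 and 0.0521.

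Each line lacking 3 PCGF genes was also set against the 2 lines that lack some of these genes. Pcgf3/5/6-/- differed from Pcgf3/5-/- in 13 of 21 forkhead genes (51.8% of all genes) and from Pcgf6-/- in 10 (45.9%). In turn, Pcgf1/2/4-/- differed from Pcgf1-/- in 8 (41.6%) and from Pcgf2/4-/- in 7 (30%). Foxp1 was higher in Pcgf3/5/6-/- than in Pcgf3/5-/- by 3.19 ± 0.26 on the log2 scale (adjusted p = 2.48e-07) and than in Pcgf6-/- by 0.77 ± 0.20 (0.00691), the second of which was lost without Pcgf6-/- replicate 1 or Pcgf3/5/6-/- replicate 2 (0.0691). Foxo4 was higher than in Pcgf6-/- by 1.32 ± 0.17 (adjusted p = 4.00e-05). Foxj2 differed from Pcgf3/5-/- by 1.86 ± 0.31 (adjusted p = 0.000160), and no difference from Pcgf6-/- was called. In Pcgf1/2/4-/-, Foxp1 and Foxj2 were lower than in Pcgf1-/- by -2.48 ± 0.48 (adjusted p = 0.00106) and -1.85 ± 0.47 (0.00625). Neither gene was called against wild-type in Pcgf1/2/4-/-, and the Foxj2 difference from Pcgf1-/- was lost without Pcgf1/2/4-/- replicate 1 (0.0743).

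Among the 21 forkhead genes tested here, the authors' deposited table of each comparison with wild-type called 7 in Pcgf1-/-, 4 in Pcgf2/4-/-, 4 in Pcgf3/5-/-, 12 in Pcgf6-/-, 7 in Pcgf1/2/4-/- and 13 in Pcgf3/5/6-/- at the same threshold. Of these, 7, 4, 4, 12, 6 and 13 were also called here, all with the same sign. The authors' deposited table further had Foxq1, not tested here, with adjusted p of 0.00182 in Pcgf6-/-, 0.0365 in Pcgf1/2/4-/- and 0.00329 in Pcgf3/5/6-/-, and Foxr2 with 0.00827 in Pcgf6-/-. The Pcgf6-/- line carries another clone name in the authors' deposited table than in the count table.

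Deposited peaks were then assigned to the forkhead genes, each of which could be matched to an annotated gene. A gene holds a peak where a peak of the list overlaps the 2.5 kb on either side of an annotated start. Lists were called by the authors from 1 sample each with no replicate, and their lengths differ widely, so a gene absent from a list is not shown to be unbound. Foxd2 and Foxd2os share their peaks, as do Foxl2 and Foxl2os, whose starts lie 297 bases apart.

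In wild-type cells, 31 of 46 forkhead genes held a Ring1b peak, against 15.7% of the 21996 annotated genes. As many held a Suz12 peak (31, against 17%), and 30 held both (against 14.2%). Ring1b without Suz12 was found at Foxn2, and Suz12 without Ring1b at Foxo1. Neither was found at Foxa3, Foxh1, Foxi1, Foxj3, Foxk1, Foxk2, Foxm1, Foxn1, Foxn3, Foxo4, Foxp3, Foxr1, Foxr2 and Foxs1. Of the 7 genes with the highest RNA per kb named above, 1 (Foxn2) held a Ring1b peak, and of the 25 that did not pass the filter 20 did. By the authors' fold enrichment within the wild-type list, the highest Ring1b peaks lay at Foxb2 (30.3), Foxd2 and Foxd2os (29.0) and Foxl2 and Foxl2os (28.9). The lowest lay at Foxn2 (6.22), Foxj1 (6.02), Foxo3 (5.33) and Foxj2 (5.02). The 7 lowest, which also include Foxp4, Foxp1 and Foxn4, all lay at genes that passed the filter on counts. Foxd3, Foxa1 and Foxd2os, which also passed it, had higher ones. The filter runs over all 14 libraries and is not a measure of wild-type RNA. Foxj1 and Foxn4 passed it with 5 and 8 wild-type counts, while the untested Foxo6 had 9.

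Pcgf2 peaks were at 27 forkhead genes in wild-type (13.3% of all genes) and Pcgf1 peaks at 13 (2.59%), namely Foxa1, Foxb1, Foxd3, Foxd4, Foxe1, Foxf1, Foxf2, Foxl1, Foxl2, Foxl2os, Foxo3, Foxo6 and Foxq1. All of these 13 also held Ring1b, and 26 of the 27 Pcgf2 genes did, with Foxa3 the exception. Over all genes, Ring1b was at 536 of the 570 with Pcgf1 and at 2232 of the 2926 with Pcgf2. Pcgf6 peaks were at 6 (5.91%): Foxd1, Foxd4, Foxn2, Foxo3, Foxp2 and Foxq1, all with Ring1b. Over all genes, 736 of the 1299 with Pcgf6 also held Ring1b. No forkhead gene held a Pcgf3 peak in wild-type (0.891% of all genes) or in the 4 single or paired knockout lines. H3K27me3 was at 25 (13.3%), H2AK119Ub1 at 13 (3.94%), and H3K4me3, the mark of active or poised starts, at 42 (68.6%), which include all 31 with Ring1b. Over all genes, 3378 of the 3448 with Ring1b also held H3K4me3. The H3K27me3 genes included Foxs1, which had neither Ring1b nor Suz12. The USF1 list, an E-box binding protein, held 10 (17%) and the WDR5 list, a subunit of H3K4 methyltransferases, 4 (9.59%). Foxi1, Foxn1, Foxp3 and Foxr2 held none of Ring1b, Suz12, Pcgf1, Pcgf2, Pcgf6 and H3K4me3.

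**Figure D3:**
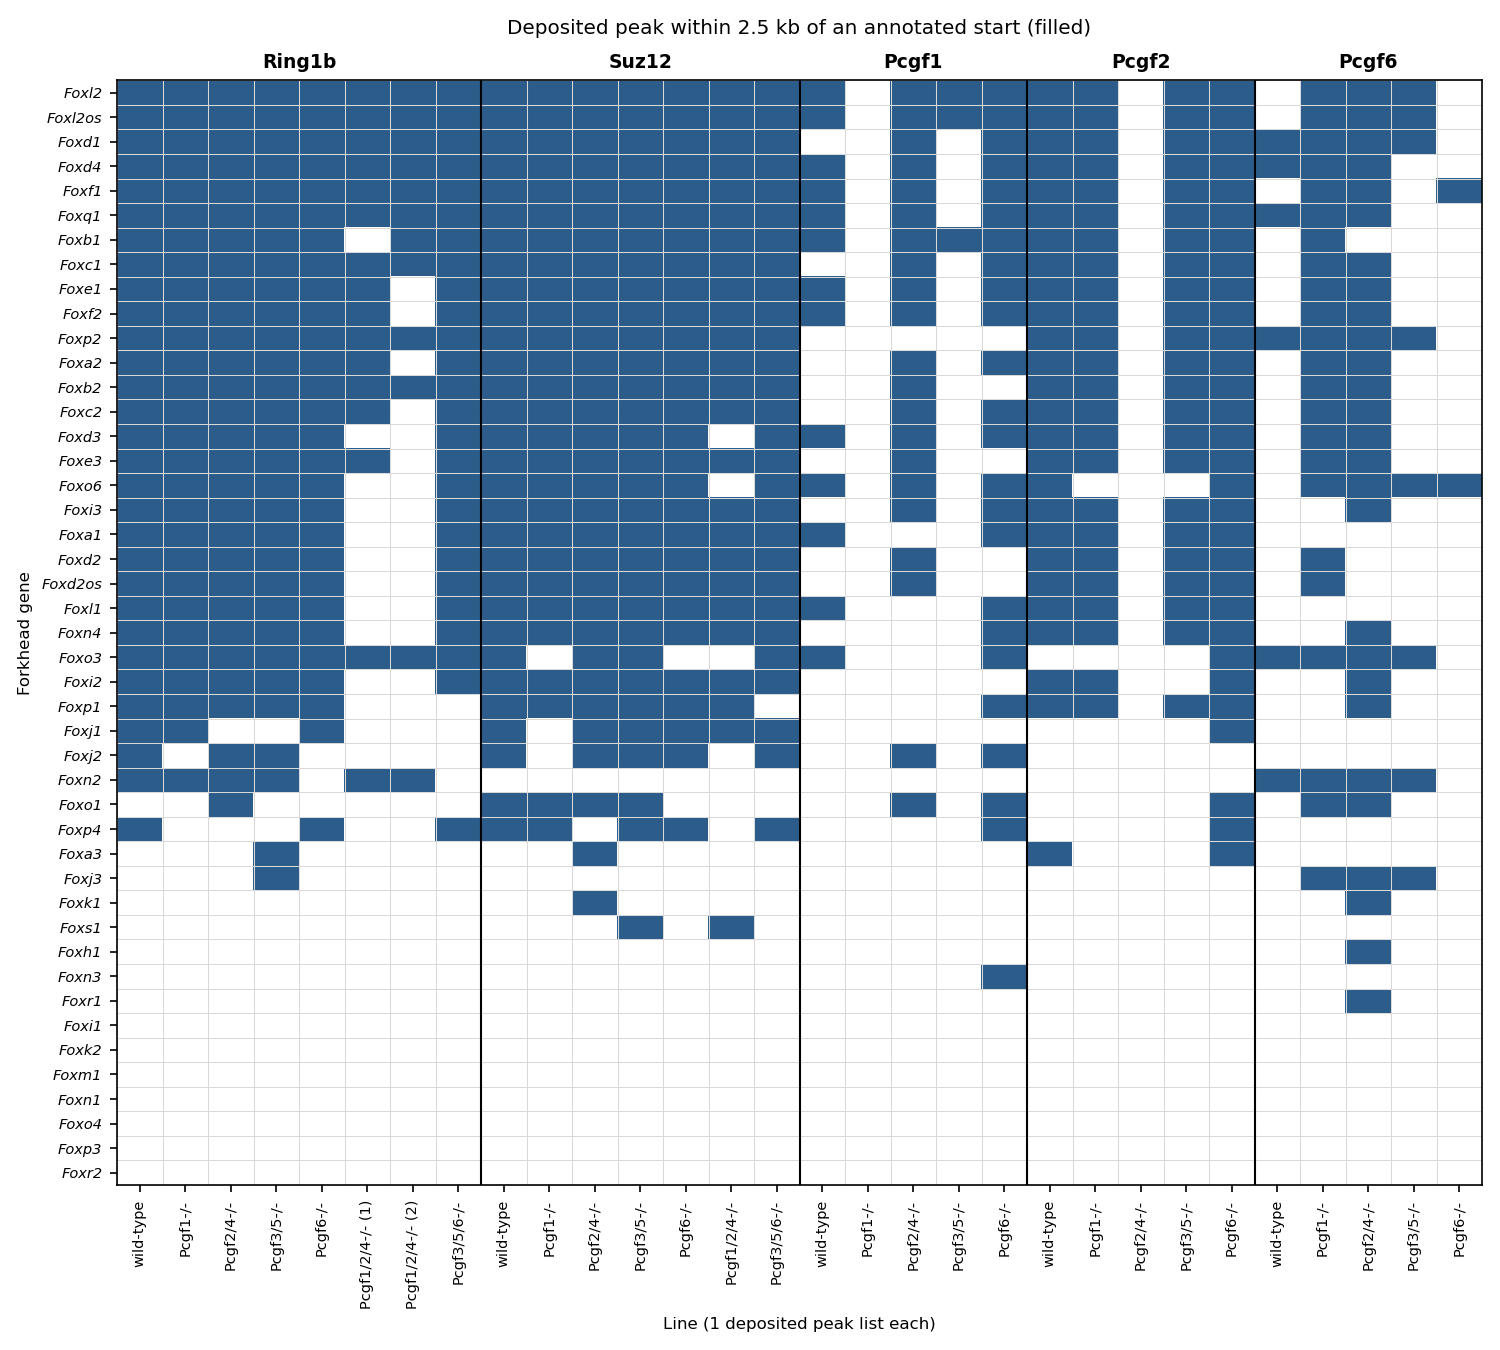
Forkhead genes (rows) with a deposited peak within 2.5 kb of an annotated start (filled) in each list (columns), grouped by antibody. The rows at the top hold Ring1b and Suz12 in nearly every line, and the Pcgf2 column of Pcgf2/4-/- and the Pcgf1 column of Pcgf1-/- are empty.

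Most Ring1b peaks at forkhead genes were kept in the lines that lack 1 or 2 PCGF genes. There were 29 in Pcgf1-/- (15.8% of all genes), 30 in Pcgf2/4-/- (17.6%), 31 in Pcgf3/5-/- (16%) and 29 in Pcgf6-/- (13.1%). Each of these lines lost 2 of the 31 wild-type peaks: Foxj2 and Foxp4 in Pcgf1-/-, Foxj1 and Foxp4 in both Pcgf2/4-/- and Pcgf3/5-/-, and Foxj2 and Foxn2 in Pcgf6-/-. All of these lost peaks are among the 5 lowest in wild-type. Each line thus kept 93.5% of the wild-type forkhead peaks. Over all genes the share kept was 86.4% in Pcgf1-/-, 84.7% in Pcgf2/4-/-, 86.9% in Pcgf3/5-/- and 74.4% in Pcgf6-/-. In Pcgf1/2/4-/- the first list held 17 (7.07%) and the second 13 (6.33%), so 54.8% and 41.9% of the wild-type forkhead peaks were kept, against 32% and 27.3% over all genes. The genes lost in both lists were Foxa1, Foxd2, Foxd2os, Foxd3, Foxi2, Foxi3, Foxj1, Foxj2, Foxl1, Foxn4, Foxo6, Foxp1 and Foxp4. In Pcgf3/5/6-/-, 27 forkhead genes held Ring1b (8.27%) and 87.1% of the wild-type peaks were kept, against 50.3% over all genes, with Foxj1, Foxj2, Foxn2 and Foxp1 lost.

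Suz12 peaks varied less. They were at 28 forkhead genes in Pcgf1-/- (15.7%), 32 in Pcgf2/4-/- (21.7%), 32 in Pcgf3/5-/- (17.5%), 29 in Pcgf6-/- (15%), 26 in Pcgf1/2/4-/- (13.7%) and 29 in Pcgf3/5/6-/- (13.5%). Foxo3 was lost from the Suz12 list in Pcgf1-/-, Pcgf6-/- and Pcgf1/2/4-/-, and Foxp1 in Pcgf3/5/6-/-.

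**Figure D4:**
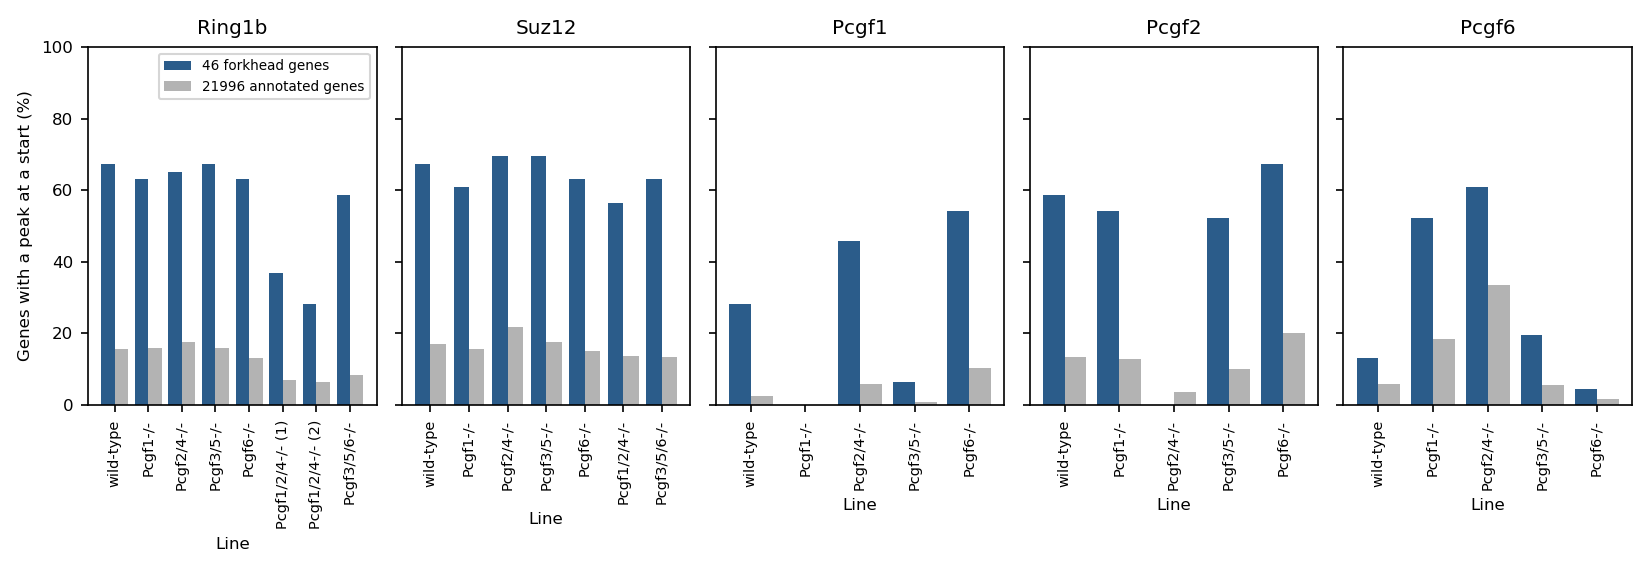
Share of the 46 forkhead genes (blue bars) and of all 21996 annotated genes (grey bars) with a peak within 2.5 kb of a start (vertical axis, percent) in each line (horizontal axis), for 5 antibodies. Forkhead genes lie above all genes for Ring1b and Suz12 in every line, and both shares of Ring1b are lowest in Pcgf1/2/4-/-.

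The length under Ring1b peaks changed even where the peak stayed. Over the 29 forkhead genes with a peak in both wild-type and Pcgf2/4-/-, the median covered length was 3177 bases in wild-type and 1700 bases in Pcgf2/4-/-, and it was shorter at 27 of them. In Pcgf1/2/4-/- it was 826 bases against 3792 over 17 genes in the first list and 469 against 3599 over 13 in the second. In Pcgf6-/- it was longer (4233 against 3177 bases over 29 genes, longer at 23), and in Pcgf3/5/6-/- it was 2987 against 3262 bases over 27 genes. For Suz12 it was 2168 against 3072 bases in Pcgf1/2/4-/- (25 genes, shorter at 24) and 3803 against 2917 bases in Pcgf6-/- (29 genes, longer at 25). Over all genes with a Ring1b peak in a list, the median covered length was 1371 bases in wild-type, 871 in Pcgf2/4-/-, 528.5 and 465 in the Pcgf1/2/4-/- lists, 1791 in Pcgf6-/- and 1333 in Pcgf3/5/6-/-. Such lengths over all genes are not given here for Suz12. The depth of the ChIP-seq samples is not in the lists, and its part in these lengths was not tested.

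**Figure D5:**
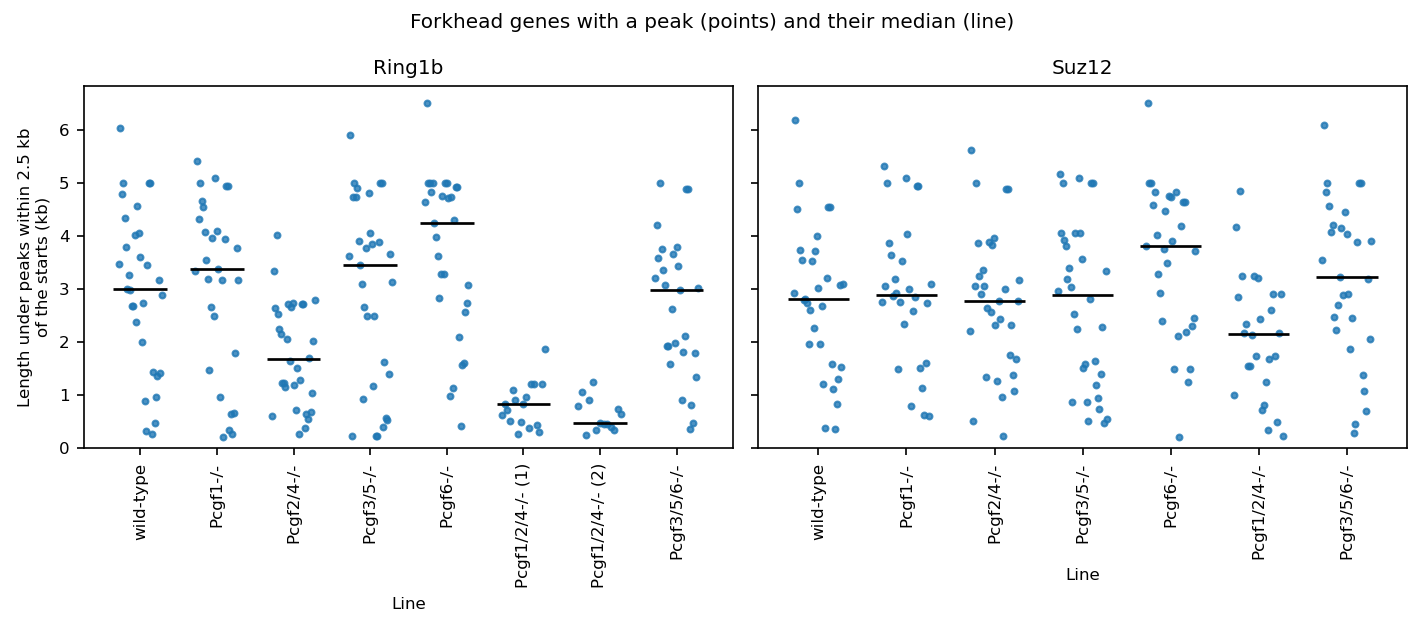
Length under Ring1b (left) and Suz12 (right) peaks within 2.5 kb of the starts, in kb (vertical axis), for each forkhead gene with a peak (points) and their median (line), by line (horizontal axis). For Ring1b, the medians of Pcgf2/4-/- and of both Pcgf1/2/4-/- lists lie below those of the other lines, and for Suz12 the lowest median is that of Pcgf1/2/4-/-.

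The PCGF proteins were listed at different forkhead genes when another was lost. Pcgf1 peaks were at none in Pcgf1-/- (0.00909% of all genes), at 21 in Pcgf2/4-/- (5.75%), at 25 in Pcgf6-/- (10.2%) and at 3 in Pcgf3/5-/- (0.818%), a list of 214 peaks against 736 in wild-type. The genes gained in Pcgf2/4-/- included the Ring1b-rich Foxa2, Foxb2, Foxc1, Foxc2, Foxd2 and Foxe3, and those gained in Pcgf6-/- included Foxp1, Foxo1, Foxj2 and Foxn4, whose RNA was raised in that line, Foxn3 and Foxp4, whose RNA was lowered, and genes that were not tested. Pcgf2 peaks were at 25 in Pcgf1-/- (12.9%), none in Pcgf2/4-/- (3.6%), 24 in Pcgf3/5-/- (10.1%) and 31 in Pcgf6-/- (20.2%). In the last of these the median covered length was 4705 bases against 2383 in wild-type over 27 genes. Over all genes with a Pcgf2 peak in a list it was 1377 bases in Pcgf6-/- and 867 in wild-type, from lists of 7739 and 4472 peaks. Over all genes, 552 with a wild-type Pcgf2 peak still held a Pcgf2 peak in Pcgf2/4-/-, and no forkhead gene was among them.

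Pcgf6 peaks were at 24 forkhead genes in Pcgf1-/- (18.3%), 28 in Pcgf2/4-/- (33.5%), 9 in Pcgf3/5-/- (5.45%) and 2 in Pcgf6-/- (1.63%). The list of Pcgf2/4-/- held 12842 peaks and that of wild-type 1868. All 6 wild-type Pcgf6 genes were absent from the Pcgf6-/- list, while Foxf1 and Foxo6 appeared in it and not in wild-type. With cells that carry a control hairpin (shCtr), Pcgf6 peaks were at 22 (20.9%), among them all 6 of wild-type. Over all genes, 98.5% of those with Pcgf6 in wild-type were kept in shCtr. In the cells labelled for MGA or E2F6, Pcgf6 peaks were at none in shMGA (0.746%), 9 in shMGAdHLH (2.3%), 2 in shE2F6 (1.94%) and none in shE2F6-MGAdHLH (0.85%). The 2 left in shE2F6 were Foxo3 and Foxp2, whose summit stretches shown above hold an E-box and an E2F motif. Of the 6 wild-type genes, shMGAdHLH kept Foxd1 and Foxd4, at whose summits no motif was found. A link between motifs and kept peaks was not tested.

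Pcgf1 and Pcgf2 were listed at different numbers of forkhead genes in cells that lack other Polycomb subunits. In Ezh1/2-/- cells, which lack the methyltransferases of complex 2, Pcgf2 peaks were at no forkhead gene (0.814%, a list of 163 peaks) and Pcgf1 peaks at 29 (11.5%), including all 13 of wild-type. Over all genes, 95.4% of those with Pcgf1 in wild-type were kept in Ezh1/2-/- cells. In the Ring1a-/-_Ring1bfl line, Pcgf1 peaks were at 37 (32.6%), Pcgf2 at 25 (9.94%) and Pcgf6 at 2 (6.33%). In Ring1a/b-/- cells they were at 11 (4.32%), none (1.64%) and 2 (4.91%). The 2 Pcgf6 genes were Foxn2 and Foxp2 in both lines, and both also held Pcgf6 in wild-type.

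Histone marks at forkhead genes differed between lines along with the length of the lists. H2AK119Ub1 was at 21 in Pcgf1-/- (10.3%), 39 in Pcgf2/4-/- (42%), 44 in Pcgf3/5-/- (67%), 20 in Pcgf6-/- (7.19%) and 36 in Pcgf3/5/6-/- (32.1%). The list held 1741 peaks in wild-type and 128786 in Pcgf3/5-/-. Both Pcgf1/2/4-/- lists held few, 2 in the first list (1.74%) and 1 in the second (0.868%). H3K27me3 was at 27 in Pcgf1-/- (20%), 37 in Pcgf2/4-/- (36.7%), 32 in Pcgf3/5-/- (21.5%), 23 in Pcgf6-/- (14%), 18 in Pcgf1/2/4-/- (5.76%) and 31 in Pcgf3/5/6-/- (20.1%). Of the wild-type forkhead genes with H3K27me3, 72% kept it in Pcgf1/2/4-/-, against 38.3% over all genes. Fly chromatin was added to these samples as a reference, and the peak lists do not carry its scaling.

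Binding and RNA were set side by side for the 21 tested genes, of which 11 held a wild-type Ring1b peak. In Pcgf6-/-, 7 of these 11 were raised and 2 lowered, against 46.2% and 16.5% of the 2467 tested genes with a Ring1b peak. Of the 10 without one, 3 were raised and 5 lowered, against 24% and 19.2%. In Pcgf3/5/6-/- the counts were 6 raised and 2 lowered with a peak (55.9% and 11.7% of all such genes) and 4 raised and 1 lowered without (22.8% and 27.9%). In Pcgf1-/- they were 3 and 1 with a peak (20.8% and 20.8%) and 1 and 2 without (12.5% and 18%), and in Pcgf2/4-/- 1 and 2 (8.59% and 23.9%) and none and 1 (7.95% and 11.7%). In Pcgf3/5-/- they were 1 and none (18.6% and 13.6%) and 1 and 2 (9.64% and 9.8%), and in Pcgf1/2/4-/- 1 and 1 (15.3% and 16.9%) and 2 and 3 (14.4% and 23.9%).

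Genes with the largest changes in RNA did not share one pattern of binding. Foxj2 had lost its Ring1b peak in each of the 3 lines in which its RNA was raised, Pcgf1-/-, Pcgf6-/- and Pcgf3/5/6-/-, and also in Pcgf1/2/4-/-, in which no change was called. Foxp1 had lost Ring1b and Suz12 in Pcgf3/5/6-/- but held both in Pcgf6-/- and Pcgf1-/-, in which its RNA was also raised. The Foxp1 Ring1b peak of Pcgf1/2/4-/- was absent from both lists and its Suz12 peak present, and no change in RNA was called. Foxa1 held Ring1b, Suz12 and H3K27me3 in Pcgf6-/-, the line with 13 counts in each library. Foxn4 held Ring1b in Pcgf6-/- (2087 bases covered) and in Pcgf3/5/6-/- (358 bases), against 1443 bases in wild-type. Foxa3, raised in 5 lines, had no Ring1b peak in wild-type and gained one in Pcgf3/5-/- alone. All 20 genes with a wild-type Ring1b peak that did not pass the filter on counts also held a Ring1b peak in Pcgf3/5/6-/-.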

How the data were processed

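RNA was measured in 14 libraries of poly-A RNA (modified SMART-seq2, per the labels) and peaks in 72 lists. The authors deposited a table of raw counts per gene, tables of log2 fold changes with adjusted p-values for each knockout, and peak lists with a fold enrichment (ratio) and -log10 p and q per peak. Per the submitters' processing notes, the tools were bcl2fastq 2, TopHat2 2.1.1, Bowtie 1.2.2, Picard 1.62, HTSeq 0.7.2, DESeq2 3.7, DESeq and MACS2 2.1.1 on mm9; the sources used here give neither their roles nor whether strand was used in counting.

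Counts were tested with edgeR 4.0.16 (R 4.3.3; TMM factors, filterByExpr, quasi-likelihood F-test, 7 groups of 2, Benjamini-Hochberg adjustment over 15464 genes, threshold 0.05), after the code was tested on simulated data. Levels (CPM) are counts divided by TMM-scaled library totals, and 1 count was worth 0.109 to 0.533 CPM. Library totals and the near-identical wild-type pair are given in the report. Floors (3 counts) cover counting error only. The SE of a log2 fold change comes from the quasi-likelihood fit and also takes in the spread between libraries. Alternatives were DESeq2 1.42.0, RLE factors, other filters, a fit of only the 2 groups compared, loess offsets, a replicate block, summed wild-type libraries and leaving out each library.

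Symbols were matched to GENCODE M1 (NCBIM37) starts, directly for 21001 and by RefSeq synonym for 995 of 23377; all 46 forkhead genes matched. A peak was assigned where it overlapped 2.5 kb on either side of a start by 1 bp or more; windows of 1 and 5 kb and -log10 q of at least 5 and 20 were alternatives. Signal tracks and the 8 other peak lists were not used. Overlapping genes (Foxp1 with Eif4e3, Foxk2 with Narf, Foxm1, Foxj2, Foxj3, Foxp4, Foxn3 and Foxd3 with non-coding or predicted genes) make those counts uncertain.

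Library values were given for genes that passed the test with both knockout libraries beyond wild-type and a mean of at least 1 CPM in a group, and for the 6 with the highest wild-type level per exonic kb. The forkhead genes, the pathway lists and the marker lists were chosen with earlier results of these data known. Values of some genes that enter the counts are not reported here.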

Additional observations from a re-analysis of the deposited data

Results flagged for a closer look

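Foxo4 moved in opposite directions in lines labelled as lacking Pcgf3 and Pcgf5. Against wild-type its log2 fold change was 1.62 in Pcgf3/5/6-/- and -1.11 in Pcgf3/5-/-, with both libraries of each line on their own side of wild-type. The direct comparison of the lines gave 2.73 (edgeR, adjusted p = 8.04e-08).

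Foxj3 did so in lines labelled as lacking Pcgf6, whose RNA was at 42.0 and 37.2 CPM in Pcgf3/5/6-/- and 36.2 and 34.3 CPM in wild-type. Its log2 fold change against wild-type was 0.65 in Pcgf3/5/6-/- and -0.52 in Pcgf6-/-, and the direct comparison gave 1.17 (edgeR, adjusted p = 5.42e-05).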

How the results depend on the processing

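Of 116 alternative counts of changed forkhead genes, 107 lay within 1.5 times the reported count. In Pcgf2/4-/- the count of 4 was 1 in a fit of those 2 groups alone and 7 with loess offsets, and in Pcgf1/2/4-/- the count of 7 was 4 with summed wild-type libraries. Leaving out each library gave 5 in Pcgf1-/- in all 4 cases, 2 to 5 in Pcgf2/4-/-, 3 to 4 in Pcgf3/5-/-, 11 to 13 in Pcgf6-/-, 4 to 5 in Pcgf1/2/4-/- and 10 to 13 in Pcgf3/5/6-/-. For the lines lacking 3 genes it gave 5 to 7 against Pcgf1-/-, 5 to 7 against Pcgf2/4-/-, 10 to 12 against Pcgf3/5-/- and 6 to 8 against Pcgf6-/-, where the lowest value came without Pcgf6-/- replicate 1. Against Pcgf1-/- the lowest came without either Pcgf1/2/4-/- library. The lone library of a genotype is then assumed to vary like the other groups. The fitted log2 fold change of Foxa1 in Pcgf3/5/6-/-, against a wild-type group with no count, ran from 0 (without Pcgf3/5/6-/- replicate 1, edgeR adjusted p of 1) to 6.13 (without replicate 2), and depends on the prior count. With the replicate number as a block, the counts were 7, 4, 4, 15, 6 and 13 in the order of the report's lines Pcgf1-/-, Pcgf2/4-/-, Pcgf3/5-/-, Pcgf6-/-, Pcgf1/2/4-/- and Pcgf3/5/6-/-, and 8, 7, 12 and 10 for Pcgf1/2/4-/- against Pcgf1-/- and Pcgf2/4-/- and Pcgf3/5/6-/- against Pcgf3/5-/- and Pcgf6-/-. Same-numbered libraries share only a number: their deviations correlated by -0.46 to 0.38 over 21 pairs of groups, above 0.1 in 3. Of 150 other counts of genes with a peak, 149 lay within 1.5 times, and the exception was Pcgf1 in Pcgf3/5-/- (1 with a window of 1 kb, 3 reported). With peaks of -log10 q of at least 20, a minimum chosen after seeing the data, Pcgf1 was at 0 forkhead genes in wild-type, 3 in Pcgf2/4-/-, 0 in Pcgf3/5-/- and 0 in Pcgf6-/-. Pcgf6 was then at 0 in wild-type, 6 in Pcgf1-/-, 13 in Pcgf2/4-/-, 0 in Pcgf3/5-/- and 0 in Pcgf6-/-, and Ring1b at 19 in Pcgf2/4-/- and at 2 and 1 in the Pcgf1/2/4-/- lists. The cause of these shifts was not tested. The 25 untested genes had at most 1.81 CPM in any group, and the part of depth in this was not tested.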
